A study of Mus musculus with 12 samples.

Results

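The Gimap genes encode a family of GTPases of lymphocytes, and the 8 members measured here are Gimap1, Gimap3, Gimap4, Gimap5, Gimap6, Gimap7, Gimap8 and Gimap9. They were found by symbol among the 23174 lines of each of the 2 deposited tables, and all 8 were present in both. The family was chosen by its FPKM values in both comparisons, AMD3100 against vehicle and Cxcr4 KO against Cxcr4 WT, so its values in them are given as a description. Expression was measured by RNA-seq in 12 samples of T-ALL (T-cell acute lymphoblastic leukaemia) from mice, in 4 groups of 3. All leukaemias carried Notch1-deltaE, an activated form of Notch1, on a C57BL/6 background. In the first experiment, T-ALL cells treated ex vivo with AMD3100, a small-molecule antagonist of the chemokine receptor Cxcr4, were set against T-ALL cells given vehicle. In the second, primary tumours with the genotype Cxcr4-/- (Cxcr4 KO, numbered 5, 7 and 8) were set against Cxcr4+/+ primary tumours (Cxcr4 WT, numbered 1, 2 and 4). Per the labels, cells taken from spleen were grown on OP9 cells, a mouse bone marrow stromal line, with IL-7 at 5 ng/ml. The same culture text stands on the tumour samples, and whether the tumours were cultured is not settled by it. Not given in the sources used here are the age, the AMD3100 dose and time, how the deletion was made and whether same-group samples came from separate animals, so the p-values cover the scatter of these samples alone, and this scatter may be technical.

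Gimap proteins share a GTP-binding domain of the AIG1 type, and many are anchored in the membranes of organelles. They are known mainly from mature T and B lymphocytes and from late stages of thymocyte development, where several of them are needed for the cells to survive. Mouse Gimap3 and Gimap5 have been described to bind proteins of the Bcl2 family, and loss of Gimap5 causes lymphopenia in rats and mice. In mice the genes lie in 1 cluster on chromosome 6, in the order Gimap8, Gimap9, Gimap4, Gimap6, Gimap7, Gimap1, Gimap5 and Gimap3.

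The stretches before the start sites of 3 members are shown, because these members led the family in culture (Gimap9), led it in the tumours (Gimap4) or were near 0 in culture (Gimap3). The sequences are from RefSeq on build GRCm38.p6, 5′ to 3′ along the gene, and each holds the 250 bases before the start. They lie at chr6:48675885-48676134 (plus strand) for Gimap9, chr6:48684328-48684577 (plus strand) for Gimap4 and chr6:48770852-48771101 (minus strand) for Gimap3. The deposited values were made on build mm9, so these positions belong to the sequences and not to the values. Capitals mark a match to a motif that was searched for.
Gimap9: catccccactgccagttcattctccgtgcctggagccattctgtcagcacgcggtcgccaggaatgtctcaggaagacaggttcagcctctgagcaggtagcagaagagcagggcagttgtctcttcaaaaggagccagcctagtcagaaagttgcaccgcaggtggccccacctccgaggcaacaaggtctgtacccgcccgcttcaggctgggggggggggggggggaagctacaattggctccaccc
Gimap4: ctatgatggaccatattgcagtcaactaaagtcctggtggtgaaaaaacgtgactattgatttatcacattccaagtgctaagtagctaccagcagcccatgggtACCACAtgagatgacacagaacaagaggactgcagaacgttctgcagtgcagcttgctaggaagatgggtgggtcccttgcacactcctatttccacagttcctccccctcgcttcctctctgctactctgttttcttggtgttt
Gimap3: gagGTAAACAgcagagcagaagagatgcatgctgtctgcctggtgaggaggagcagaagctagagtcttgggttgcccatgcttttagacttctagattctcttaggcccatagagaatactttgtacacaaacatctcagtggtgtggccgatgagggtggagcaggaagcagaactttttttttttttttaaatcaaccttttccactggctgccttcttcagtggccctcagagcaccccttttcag
The 5 motifs searched, on both strands, were TGTGGT (Runx), GGAAGT (ETS), TGGGAA (RBPJ, the DNA-binding partner of Notch), CTTTGA (TCF/LEF) and TGTTTAC (FoxO). The capitals in Gimap4 are the Runx letters and those in Gimap3 the FoxO letters, both on the opposite strand. Over the 9 windows of the 8 members (Gimap8 has 2 starts), the Runx letters were found in 3 (Gimap4, Gimap7 and Gimap1), against 14% of 32851 promoter windows of the same length. The ETS letters were in 2 (Gimap6 and Gimap5), against 19.7%, and the FoxO letters in 1, against 3.17%. No window held the RBPJ or the TCF/LEF letters, which 21.6% and 13.8% of all windows hold. A match describes the letters of the window and says nothing of binding.

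Gimap3 and Gimap5 shared stretches as long as a read with each other and with no other member. Of the transcripts of the 8 members in GENCODE vM21, these were the only 2 that shared stretches of 50 bases, the read length of the libraries, namely 9.07% of the 50-base stretches of Gimap3 and 9.98% of those of Gimap5. The longest run that the 2 coding sequences share is 140 bases, from base 175 to 314 of the 906 coding bases of Gimap3 and from base 187 to 326 of the 927 of Gimap5, both on chromosome 6.
Gimap3 and Gimap5: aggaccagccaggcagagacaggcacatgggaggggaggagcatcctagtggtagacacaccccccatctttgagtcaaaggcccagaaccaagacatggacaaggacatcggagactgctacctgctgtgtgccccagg
Reads from this run cannot be assigned to either gene by sequence, so low values of the one beside high values of the other are uncertain. The annotation also holds a gene on the same strand that overlaps Gimap7, Gimap1 and Gimap5 (Gm28053) and one on the opposite strand over Gimap1 (Gimap1os). The libraries were made to keep the strand, but no source used here says whether the counting used it.

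FPKM, the unit of all values, scales fragments to transcript length and to the mapped fragments of the library, so levels of different genes can be compared within a library. Read depth is unknown, because the tables hold no counts. The FPKM of a library added up to between 444803 and 480468 for the cultured cells and to between 368118 and 581159 for the tumours. Haemoglobin RNA made up 2.76 to 20.4% of the summed FPKM in Cxcr4 KO tumours and 1.29 to 23.0% in Cxcr4 WT tumours, and at most 0.000139% ex vivo. Gapdh, used by every cell, was at or near 0 in every library, so that a 0 can stand for an estimate that failed, and such values are called listed at 0. All 11 T cell markers (Cd3d, Cd3e, Lck and others) were above 0 in all 12 libraries. Cxcr4 itself was at 23.2, 78.9 and 21.9 FPKM in Cxcr4 KO tumours 5, 7 and 8, against 241, 155 and 206 FPKM in Cxcr4 WT tumours 1, 2 and 4. The groups did not overlap, and the log2 difference of −2.49 (SE 0.51) had an adjusted p of 0.986 in limma over all genes. The part of the transcript that the deletion removes is not given, so Cxcr4 checks the labels only in part. Cxcr4 was at 183, 136 and 212 FPKM with AMD3100, against 183, 112 and 141 FPKM with vehicle.

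The make-up of the family was not the same in the cultured cells and in the tumours. Gimap9 led the family in culture, with 37.8 to 50.3% of the summed Gimap FPKM in AMD3100-treated cells and 46.2 to 52.4% in vehicle cells. In the tumours Gimap9 held 5.37 to 5.87% in Cxcr4 KO and 6.37 to 11.1% in Cxcr4 WT. Gimap4 led there, with 31.0 to 32.7% in Cxcr4 KO and 30.5 to 35.1% in Cxcr4 WT tumours, against 3.36 to 13.7% with AMD3100 and 4.27 to 11.6% with vehicle. Gimap3 was close to absent from the family in culture and a main member in the tumours, with 19.5 to 21.5% of the family in Cxcr4 KO and 12.3 to 15.1% in Cxcr4 WT tumours, and at most 0.114% in any cultured sample. The 2 tables were normalised separately and the labels differ in more than culture, so these levels stand side by side without a test.

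**Figure D1:**
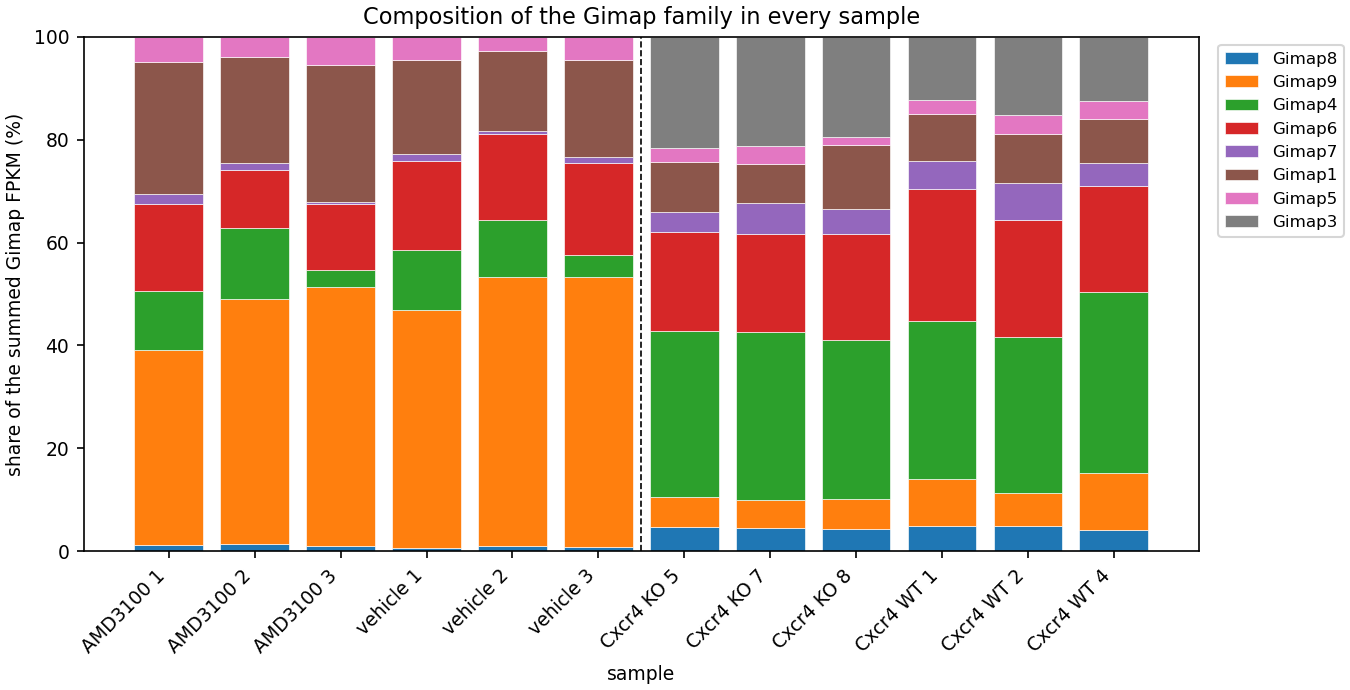
Share of each Gimap gene in the summed FPKM of the 8 members (vertical axis, percent) in each of the 12 samples, with the ex vivo samples left of the dashed line and the tumours right of it. Gimap9 holds 37.8 to 52.4% of every cultured sample and 5.37 to 11.1% of every tumour, while Gimap3 is visible only in the tumours.

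The summed level of the 8 members was 141, 118 and 133 FPKM with AMD3100, against 146, 108 and 166 FPKM with vehicle. In the tumours it was 674, 1596 and 1185 FPKM in Cxcr4 KO, against 1179, 432 and 357 FPKM in Cxcr4 WT. The lowest tumour thus had more than any cultured sample, and Cxcr4 WT tumour 1 stood inside the Cxcr4 KO range. The place of a member among all genes above 0 in its library gives a measure that does not depend on the scale between the tables. By this measure Gimap9 stood at percentiles 86.8 to 88.6 with AMD3100 and 87.4 to 90.9 with vehicle, and at percentiles 81.0 to 93.3 in Cxcr4 KO and 76.2 to 95.1 in Cxcr4 WT tumours. Gimap4 stood at percentiles 33.3 to 59.6 with AMD3100 and 38.6 to 61.1 with vehicle, and at percentiles 97.9 to 99.5 in Cxcr4 KO and 95.2 to 99.3 in Cxcr4 WT tumours. Gimap9 thus held about the same place in cultured cells and tumours, and Gimap4 did not.

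By mean FPKM the order with AMD3100 was Gimap9, Gimap1, Gimap6, Gimap4, Gimap5, Gimap8, Gimap7 and Gimap3. With vehicle it was the same except that Gimap7 stood before Gimap8. Among neighbours in the AMD3100 order, the ranges of Gimap6 and Gimap4, of Gimap4 and Gimap5 and of Gimap8 and Gimap7 overlapped, and those of the other neighbours did not. With vehicle the overlapping neighbours were Gimap1 and Gimap6, Gimap4 and Gimap5, and Gimap7 and Gimap8. In Cxcr4 KO tumours the order was Gimap4, Gimap3, Gimap6, Gimap1, Gimap9, Gimap7, Gimap8 and Gimap5, and in Cxcr4 WT tumours Gimap6 stood before Gimap3. Every pair of neighbours in both tumour orders overlapped in range.

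**Figure D2:**
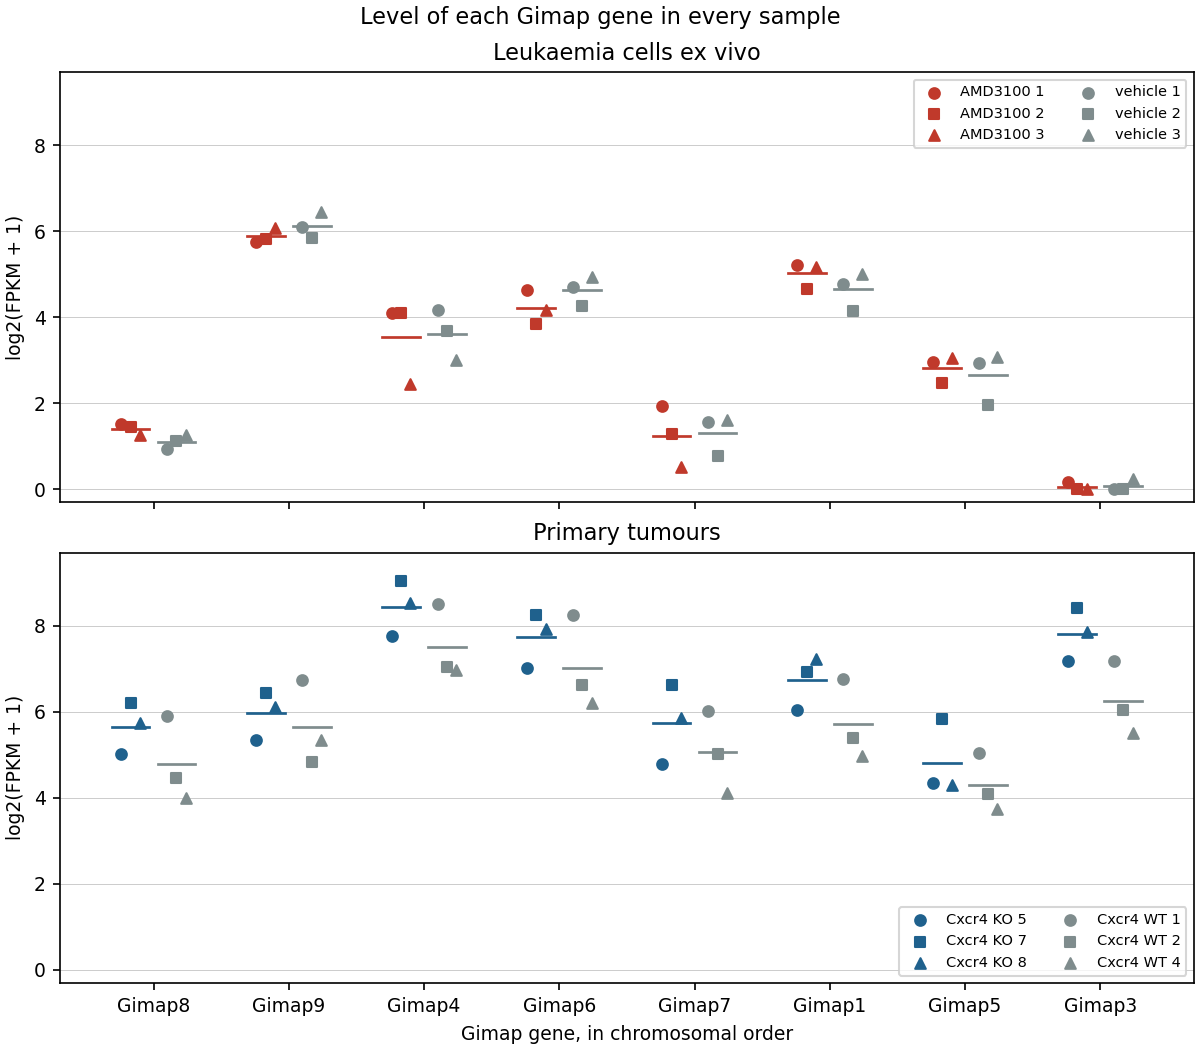
Level of each Gimap gene as log2(FPKM + 1) in every sample, with AMD3100 (red) left of vehicle (grey) in the upper panel and Cxcr4 KO (blue) left of Cxcr4 WT (grey) in the lower one; symbols mark samples and bars are group means. Gimap3 lies at or near 0 in all cultured samples and between 44.6 and 340 FPKM in the tumours, and Cxcr4 WT tumour 1 (grey circle) stands above the other Cxcr4 WT tumours for every member.

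The first comparison asked what blocking Cxcr4 in cultured leukaemia cells did to gene expression. The Gimap genes differed little between AMD3100 and vehicle, and not in one direction. Gimap1 and Gimap8 were higher and Gimap6 and Gimap9 lower with AMD3100 in each of the 3 same-numbered pairs, and the other members were mixed. Same-numbered AMD3100 and vehicle samples deviated together from their group means over all genes, and are treated as pairs.

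Gimap9, the most abundant member in culture, was at 53.4, 56.0 and 66.7 FPKM in AMD3100 samples 1, 2 and 3, against 67.3, 56.5 and 87.2 FPKM in vehicle samples 1, 2 and 3. Each AMD3100 sample was below its own vehicle sample, by very little in pair 2, and the groups overlapped. The mean was 58.7 ± 7.06 FPKM with AMD3100 and 70.3 ± 15.6 FPKM with vehicle (SD, n = 3 each), and the difference in log2(FPKM + 1) was −0.24 (SE 0.18, or 0.09 with the pairs as a block). Gimap6, whose human protein binds the autophagy protein GABARAPL2, was at 23.7, 13.4 and 17.1 FPKM with AMD3100, against 25.2, 18.2 and 29.8 FPKM with vehicle. It was lower in 3 of 3 pairs, most in pair 3, with overlapping groups and a log2 difference of −0.42 (SE 0.26, paired SE 0.14).

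Gimap1, needed in mice for mature T and B cells to persist, was at 36.3, 24.4 and 35.2 FPKM with AMD3100, against 26.6, 16.8 and 31.2 FPKM with vehicle. It was higher in 3 of 3 pairs, sample 2 was the lowest of either group, and the groups overlapped (log2 difference 0.37, SE 0.26, paired SE 0.09). Its share of the family was 20.8 to 26.6% with AMD3100 and 15.5 to 18.8% with vehicle, and here the groups did not overlap. Gimap5, its neighbour in the cluster and a protein of lysosomal membranes, was at 6.78, 4.55 and 7.35 FPKM with AMD3100, against 6.64, 2.91 and 7.40 FPKM with vehicle. It too was lowest in the samples numbered 2, and the AMD3100 and vehicle values differed visibly in that pair alone (log2 difference 0.17, SE 0.34). Over the 6 cultured samples, which are 3 pairs and not 6 independent ones, Gimap1 and Gimap5 had a Pearson r of 0.93, the highest of the 21 member pairs, whose median was 0.29.

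Gimap4, a member that in mice affects the pace of T cell death, was at 16.2, 16.1 and 4.45 FPKM with AMD3100, against 17.0, 11.9 and 7.10 FPKM with vehicle. It was low in the samples numbered 3 of both groups, and the difference between numbers was larger than that between treatments (log2 difference −0.08, SE 0.53). Gimap7 was at 2.83, 1.46 and 0.432 FPKM with AMD3100, against 1.96, 0.720 and 2.07 FPKM with vehicle. It was higher with AMD3100 in pairs 1 and 2 and lower in pair 3 (log2 difference −0.07, SE 0.46). Gimap8, the largest member, with several GTPase domains, was at 1.86, 1.74 and 1.40 FPKM with AMD3100, against 0.929, 1.20 and 1.39 FPKM with vehicle. It is the 1 kept member whose groups did not overlap, by a margin of 1.40 against 1.39 FPKM, with a log2 difference of 0.30 (SE 0.24). Over all genes 13.1% were higher with AMD3100 without overlap and 28.9% did not overlap in either direction. Gimap3 was at 0.135 FPKM in AMD3100 sample 1 and listed at 0 in AMD3100 samples 2 and 3, and was at 0.189 FPKM in vehicle sample 3 and listed at 0 in vehicle samples 1 and 2.

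Of the 8 members 7 passed the minimum mean of 1 FPKM, and Gimap3 did not. In limma, 0 of the 7 were called at an adjusted p under 0.05 over 10245 genes, and 0 had an unadjusted p under 0.05, where 0.127% of all genes were called and 21.5% had an unadjusted p under 0.05. With the pairs as a block, 0 of the 7 were called and 2 (Gimap1 and Gimap6) had an unadjusted p under 0.05, where 19.9% of all genes were called (9.96% higher and 9.92% lower) and 39% had an unadjusted p under 0.05. Gimap1 was just above the threshold, at a paired limma adjusted p of 0.0508. The sign was the same in 3 of 3 pairs for 4 of the 7 members, against 60.1% of all genes. The median log2 difference of the 7 was −0.07, against 0.00 over all genes, and 3 of the 7 were above 0, against 50.3% of all genes. That median rested on single libraries, since it was 0.29 without AMD3100 sample 3 and 0.19 without vehicle sample 1.

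**Figure D3:**
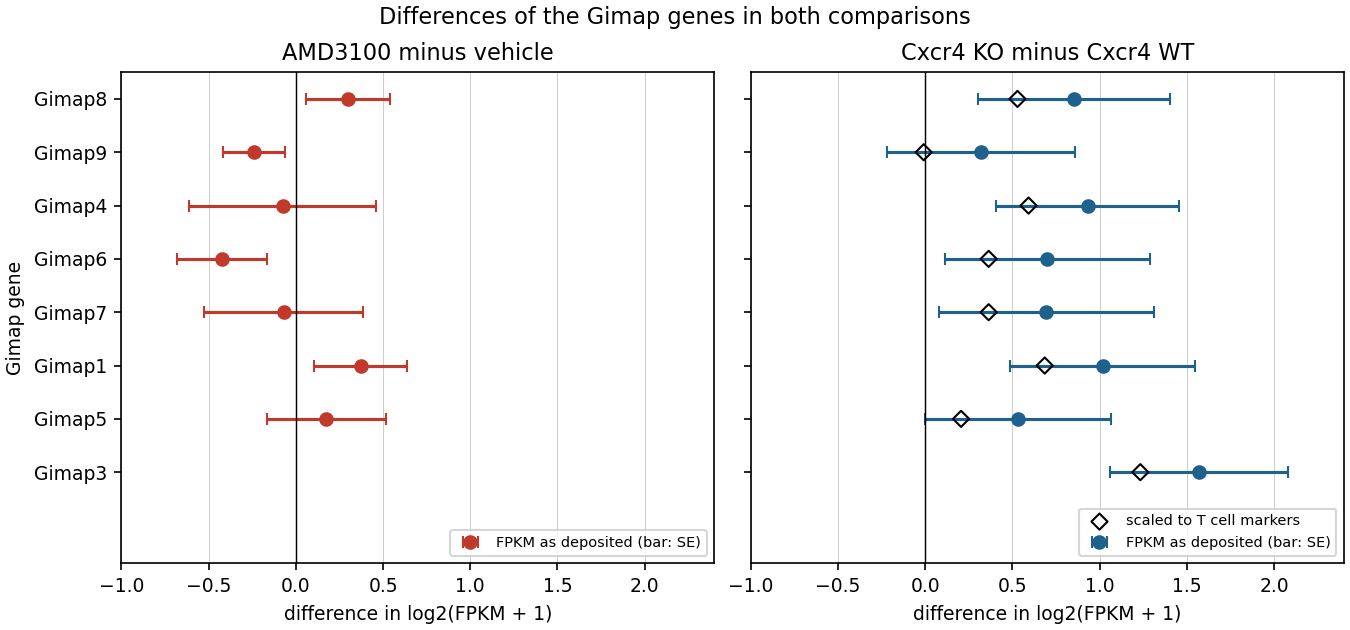
Difference in log2(FPKM + 1) of each Gimap gene, AMD3100 minus vehicle (left) and Cxcr4 KO minus Cxcr4 WT (right); dots are the differences, bars their standard errors, and open diamonds the tumour differences with each library scaled to its T cell markers. Ex vivo the differences lie on both sides of 0, and in the tumours all 8 lie above 0 as deposited, while that of Gimap9 is −0.01 after scaling.

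The second comparison asked how Cxcr4-deficient tumours differ from Cxcr4-proficient ones. All 8 members had a higher mean in Cxcr4 KO than in Cxcr4 WT tumours, with Gimap3 the furthest apart and Gimap9 the least. Cxcr4 WT tumour 1 was above the lowest Cxcr4 KO tumour for every member but Gimap3, so the groups overlapped for 7 of the 8. The members moved together from tumour to tumour.

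Gimap3, described in mice as a protein of mitochondrial and endoplasmic reticulum membranes, was at 145.16, 340 and 231 FPKM in Cxcr4 KO tumours 5, 7 and 8, against 145.01, 65.4 and 44.6 FPKM in Cxcr4 WT tumours 1, 2 and 4. The groups did not overlap, but only by the small gap between Cxcr4 KO tumour 5 and Cxcr4 WT tumour 1. The mean was 239 ± 97.6 FPKM in Cxcr4 KO and 85.0 ± 53.0 FPKM in Cxcr4 WT (SD, n = 3 each), a log2 difference of 1.57 (SE 0.51). Gimap5, which shares sequence with Gimap3, was at 19.4, 55.6 and 18.6 FPKM in Cxcr4 KO, against 31.9, 16.0 and 12.3 FPKM in Cxcr4 WT. Its groups overlapped, Cxcr4 KO tumour 7 was the highest by far, and the log2 difference was 0.53 (SE 0.53).

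Gimap4 was at 218, 522 and 367 FPKM in Cxcr4 KO, against 362, 132 and 125 FPKM in Cxcr4 WT. It was the most abundant member in each of the 6 tumours, and Cxcr4 WT tumour 1 nearly equalled Cxcr4 KO tumour 8. Gimap6 was at 129, 302 and 243 FPKM in Cxcr4 KO, against 303, 97.8 and 73.3 FPKM in Cxcr4 WT, with Cxcr4 WT tumour 1 level with the highest Cxcr4 KO tumour. The log2 difference was 0.93 (SE 0.52) for Gimap4 and 0.70 (SE 0.59) for Gimap6.

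Gimap1 was at 65.3, 120 and 148 FPKM in Cxcr4 KO, against 107, 41.3 and 30.5 FPKM in Cxcr4 WT (log2 difference 1.02, SE 0.53). It was the 1 member that was highest in Cxcr4 KO tumour 8 and not in Cxcr4 KO tumour 7 or Cxcr4 WT tumour 1. Gimap8 was at 31.3, 72.3 and 52.3 FPKM in Cxcr4 KO, against 59.1, 21.1 and 15.1 FPKM in Cxcr4 WT (log2 difference 0.85, SE 0.55). Gimap7, whose human protein stimulates the GTPase activity of a related member, was at 26.5, 96.9 and 57.2 FPKM in Cxcr4 KO, against 64.3, 31.6 and 16.3 FPKM in Cxcr4 WT (log2 difference 0.69, SE 0.62). In both, Cxcr4 WT tumour 1 lay between Cxcr4 KO tumours 8 and 7.

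Gimap9, the leading member in culture, was at 39.6, 85.6 and 67.9 FPKM in Cxcr4 KO, against 106, 27.6 and 39.5 FPKM in Cxcr4 WT. Cxcr4 WT tumour 1 was the highest of all 6, and the log2 difference of 0.32 (SE 0.54) was the smallest of the family. As a share of the family, Gimap9 was lower in every Cxcr4 KO tumour (5.37 to 5.87%) than in any Cxcr4 WT tumour (6.37 to 11.1%), and Gimap3 was higher in every Cxcr4 KO tumour (19.5 to 21.5%) than in any Cxcr4 WT tumour (12.3 to 15.1%). Gimap6 was also lower as a share, with 18.9 to 20.52% in Cxcr4 KO and 20.54 to 25.7% in Cxcr4 WT, a gap of hundredths. The shares of the other 5 members overlapped. Shares of 1 total are not independent of each other.

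All 8 members passed the minimum mean of 1 FPKM in the tumours. In limma, 0 of the 8 were called at an adjusted p under 0.05 over 10741 genes, where 0.0372% of all genes were called. An unadjusted p under 0.05 was reached by 1 of the 8 (Gimap3), against 4.28% of all genes. The 1 member without overlap (Gimap3) stands against 4.01% of all genes that were higher in Cxcr4 KO without overlap, and 9.21% without overlap in either direction. The median log2 difference of the 8 was 0.78, against −0.03 over all genes, and 8 of 8 were above 0, against 47.7% of all genes. The median was 1.36 without Cxcr4 WT tumour 1, where Gimap1, Gimap3, Gimap4, Gimap6 and Gimap8 had an unadjusted p under 0.05 and 0 of 8 were called. It was 0.38 without Cxcr4 WT tumour 4, 0.51 without Cxcr4 KO tumour 7 and 1.18 without Cxcr4 KO tumour 5. Over the 6 tumours the Pearson r between members ran from 0.69 to 0.99 over 28 pairs, with a median of 0.89, highest for Gimap6 and Gimap8. The tumours share their library, depth and cell make-up across members, so these are a description.

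The amount of lymphocyte RNA differed between the tumours, and fewer cells of a type and less RNA per cell cannot be told apart in such samples. The mean log2 level of the 11 T cell markers was 7.17, 8.31 and 7.70 in Cxcr4 KO tumours 5, 7 and 8, against 8.55, 6.72 and 6.88 in Cxcr4 WT tumours 1, 2 and 4, where that of the 8 Gimap genes was 5.94, 7.21 and 6.69 in Cxcr4 KO, against 6.80, 5.44 and 5.11 in Cxcr4 WT. The 3 tumours with the most T cell marker RNA were thus also the 3 with the most Gimap RNA. The same 3 tumours also had the highest mean log2 level of the NK and cytotoxic markers. It was 6.41 in Cxcr4 KO 7, 6.97 in Cxcr4 KO 8 and 6.55 in Cxcr4 WT 1. The mean Gimap level had a Pearson r of 0.92 with the T cell list and with the NK and cytotoxic list over the 6 tumours. Its r was 0.78 with the B cell list, 0.18 with the macrophage list and 0.07 with the neutrophil list. With the erythroid, stromal and endothelial lists it was −0.74, −0.70 and −0.42. Summed T cell markers ran from 2063 to 4447 FPKM in Cxcr4 KO and from 1518 to 5561 FPKM in Cxcr4 WT. All 7 NK and cytotoxic markers were above 0 in every tumour, with sums of 733 to 2228 FPKM in Cxcr4 KO and 532 to 2038 FPKM in Cxcr4 WT. B cell markers summed to 41.8 to 56.3 FPKM in Cxcr4 KO and 12.5 to 37.1 FPKM in Cxcr4 WT, and up to 4 of the 6 were listed at 0 in a tumour. These sums did not overlap between the genotypes, and most of each was 1 gene, Cd22. Macrophage markers summed to 26.9 to 79.0 FPKM in Cxcr4 KO and 11.5 to 62.0 FPKM in Cxcr4 WT, neutrophil markers to 66.8 to 318 FPKM in Cxcr4 KO and 5.56 to 3106 FPKM in Cxcr4 WT, and erythroid markers to 6341 to 67175 FPKM in Cxcr4 KO and 2546 to 79862 FPKM in Cxcr4 WT. Stromal markers summed to 1.49 to 2.77 FPKM in Cxcr4 KO and 10.5 to 22.9 FPKM in Cxcr4 WT, with 4 to 7 of the 8 listed at 0 in a tumour. That sum rested on Pdgfrb, Fn1 and Thbs1, each of which overlapped between the groups, and Col1a2, Col3a1, Sparc and Cxcl12 were listed at 0 in every tumour. Of 7 endothelial markers, Cdh5, Kdr, Tek, Tie1 and Emcn were listed at 0 in all 12 libraries. NK cells, B cells and normal T cells express Gimap genes too, and the part of any of them in the differences was not tested.

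**Figure D4:**
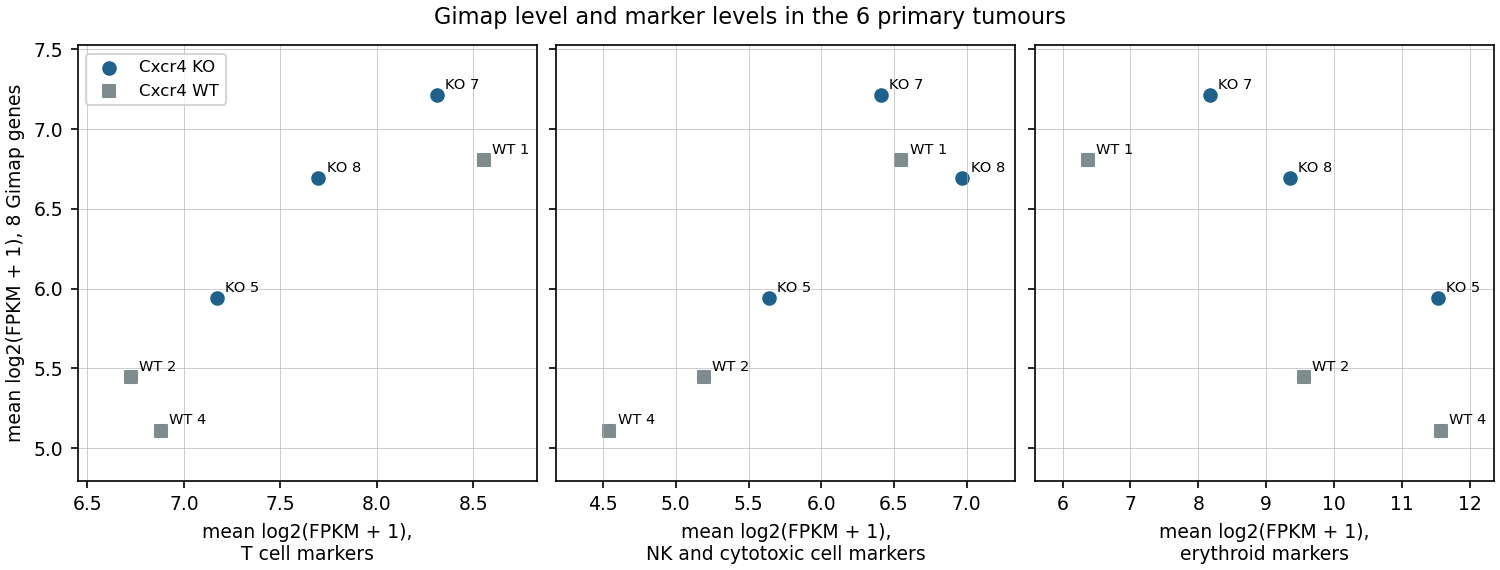
Mean log2(FPKM + 1) of the 8 Gimap genes (vertical axis) against that of the T cell, NK and cytotoxic, and erythroid marker lists (horizontal axes) in the 6 primary tumours; circles are Cxcr4 KO and squares Cxcr4 WT. The tumours with the most T cell marker RNA (Cxcr4 WT 1 at 8.55, Cxcr4 KO 7 at 8.31 and Cxcr4 KO 8 at 7.70) have the highest Gimap levels, at 6.80, 7.21 and 6.69. Their NK and cytotoxic marker levels are the highest too, at 6.55, 6.41 and 6.97 in the same order.

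Set against the T cell markers of the same library, the family was higher in each Cxcr4 KO tumour than in any Cxcr4 WT tumour, by a narrow gap. The mean log2 level of the 8 members minus that of the 11 T cell markers ran from −1.23 to −1.01 in Cxcr4 KO and from −1.77 to −1.28 in Cxcr4 WT. Set against the NK and cytotoxic markers, the family was not higher in each Cxcr4 KO tumour. In Cxcr4 KO 8 it lay below that list, at 6.69 against 6.97. It lay above that list in Cxcr4 KO 5 (5.94 against 5.64) and Cxcr4 KO 7 (7.21 against 6.41). So it did in Cxcr4 WT 1 (6.80 against 6.55), 2 (5.44 against 5.19) and 4 (5.11 against 4.54). By member, 3 of 8 were higher without overlap, against 1.95% of all genes. The members moved together over the tumours and the family was chosen by these values, so the 3 are not independent of each other. For Gimap3 the difference from the T cell markers was 0.02 to 0.16 in Cxcr4 KO and −1.37 to −0.67 in Cxcr4 WT. For Gimap4 it was 0.60 to 0.83 in Cxcr4 KO and −0.05 to 0.33 in Cxcr4 WT, and for Gimap8 −2.16 to −1.96 in Cxcr4 KO and −2.87 to −2.26 in Cxcr4 WT. Gimap9 lay at −1.88 to −1.59 in Cxcr4 KO and −1.89 to −1.54 in Cxcr4 WT, the same range. With every library scaled to its T cell markers, the median over all genes moved to −0.34, that of the 8 members was 0.45, 7 of 8 were above 0 (Gimap9 was at −0.01), and 0 of 8 were called, with 1 (Gimap3) at an unadjusted p under 0.05. Without the 2 tumours richest in haemoglobin RNA (Cxcr4 KO 5 and Cxcr4 WT 4), the median of the 8 was 0.74.

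In the cultured cells summed T cell markers ran from 4953 to 5169 FPKM with AMD3100 and from 5368 to 5624 FPKM with vehicle, a range lower with AMD3100 without overlap. The mean log2 level of the 11 T cell markers did overlap, at 8.07, 7.91 and 7.95 with AMD3100, against 8.11, 7.95 and 8.14 with vehicle. Set against that mean, Gimap8 was the 1 member higher with AMD3100 without overlap, against 16.2% of all genes. Of the 7 NK and cytotoxic markers, Ncr1 and Klrk1 were listed at 0 in all 6 cultured samples. The list as a whole summed to 1543 to 3690 FPKM with AMD3100 and 1290 to 2903 FPKM with vehicle. Most of that sum was Gzma, at 1986, 1421 and 3381 FPKM with AMD3100, against 2242, 1240 and 2854 FPKM with vehicle. B cell markers summed to at most 3.52 FPKM with AMD3100 and 4.88 FPKM with vehicle. Stromal markers, listed because of the OP9 feeder cells, summed to 178, 207 and 26.8 FPKM in AMD3100 samples 1, 2 and 3, against 160, 203 and 15.7 FPKM in vehicle samples 1, 2 and 3. In the samples numbered 1 and 2, most of that sum was 1 gene, Pdgfrb, at 144, 186 and 11.2 FPKM with AMD3100, against 136, 160 and 4.203 FPKM with vehicle. The collagen genes of the list were low in every cultured sample, with Col1a1 at 0.655 to 3.11 FPKM and Col3a1 at most at 0.315 FPKM. The sum thus mostly follows Pdgfrb, and the source of that RNA was not tested. Gimap4 was low in the samples numbered 3 as well, and the part of feeder cells in that was not tested.

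Of the 3 measured genes on each side of the cluster, AI854703 and Abp1 did not reach the minimum level and were not tested. Of the others, 0 were called by limma without pairs in either comparison and 0 had an unadjusted p under 0.05. Over all genes 0.127% were called ex vivo and 21.5% had an unadjusted p under 0.05, and 0.0372% and 4.28% in the tumours. The paired fit is not given for these neighbours. Tmem176b, next to Gimap3 and a membrane protein of myeloid and some lymphoid cells, was at 98.5, 46.3 and 5.06 FPKM with AMD3100, against 87.2, 52.7 and 2.54 FPKM with vehicle. Tmem176a, beside it, was at 47.5, 24.5 and 1.99 FPKM with AMD3100, against 40.7, 26.0035 and 1.14 FPKM with vehicle. Both were thus well above Gimap3 in culture and low in the samples numbered 3, while in the tumours they reached at most 12.5 FPKM. On the other side, Repin1, a zinc finger protein gene, was at 3.08, 6.79 and 3.63 FPKM in Cxcr4 KO, against 7.83, 6.88 and 6.41 FPKM in Cxcr4 WT. Its log2 difference was −0.60 (SE 0.40), and that of Zfp775 −0.27 (SE 0.61), where all 8 Gimap genes were above 0.

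Partners described for Gimap proteins are anti- and pro-apoptotic members of the Bcl2 family and ATG8 proteins of autophagy. The kinase gene Gsk3b and FoxO genes, regulators of lymphocyte survival, were listed with them and are not named here as binding partners. Of the 15 genes in this list, 0 were called with AMD3100 in the fit without pairs, 6 had an unadjusted p under 0.05 (21.5% of all genes did), and 5 rose with the pairs as a block (9.96% of all genes did). Bcl2l11, which encodes the pro-apoptotic Bim, was at 19.8, 23.2 and 46.5 FPKM with AMD3100, against 10.6, 13.1 and 17.6 FPKM with vehicle (log2 difference 0.99, paired limma adjusted p = 0.0199). Foxo1, a transcription factor of naive lymphocytes, was at 23.3, 42.0 and 15.5 FPKM with AMD3100, against 12.1, 26.8 and 8.01 FPKM with vehicle (log2 difference 0.80, paired limma adjusted p = 0.0197). Gsk3b (0.69), Foxo3 (0.52) and Bcl2l1 (0.44) were the others by log2 difference, and all 5 were higher in 3 of 3 pairs. Bcl2 had the largest difference of the list (1.71) and was not called, at a paired limma adjusted p of 0.056. Bad, which is pro-apoptotic, was lower in 3 of 3 pairs (log2 difference −0.58, paired limma adjusted p = 0.0551). Above 0 were 10 of the 15, against 50.3% of all genes. The median of the list was 0.26, against 0.00 over all genes and −0.07 for the Gimap genes. In the tumours 0 of the 15 were called in limma, where 0.0372% of all genes were. An unadjusted p under 0.05 was reached by 1 of the 15, against 4.28% of all genes. That gene, Bcl2, the survival gene, was at 28.5, 66.2 and 32.9 FPKM in Cxcr4 KO, against 25.0, 12.7 and 9.52 FPKM in Cxcr4 WT. Its groups did not overlap, as was so for 9.21% of all genes in either direction.

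Genes of lymphocyte quiescence and maturation, among which Gimap genes are often counted, were described in the same way. With AMD3100, 0 of 15 were called without pairs, 2 had an unadjusted p under 0.05, and 6 rose with the pairs as a block (Klf2, Btg1, Ccr7, S1pr1, Foxp1 and Lef1), against 21.5% of all genes with an unadjusted p under 0.05 and 9.96% that rose with the block. Klf2, a transcription factor of resting T cells, was at 33.7, 41.5 and 0.928 FPKM with AMD3100, against 13.99, 17.4 and 0.114 FPKM with vehicle (log2 difference 1.07, paired limma adjusted p = 0.0197). Like Gimap4, it was low in the samples numbered 3, but unlike Gimap4 it was higher with AMD3100 in every pair. Paired calls over all genes numbered 2036 with all samples, 9 when pair 1 was left out, 7 when pair 2 was left out and 1207 when pair 3 was left out, so far fewer genes were called without number 1 or number 2.

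In the tumours 0 of the same 15 genes were called in limma and 3 had an unadjusted p under 0.05, with a list median of 0.60. Over all genes 0.0372% were called there and 4.28% had an unadjusted p under 0.05. The median over all genes was −0.03, and 9.21% of all genes did not overlap in either direction. Il7r, the receptor chain for IL-7, was at 59.6, 109 and 66.7 FPKM in Cxcr4 KO, against 30.5, 10.7 and 17.9 FPKM in Cxcr4 WT, without overlap (log2 difference 2.01, SE 0.43, limma adjusted p = 0.986). Klf2 was at 140, 302 and 274 FPKM in Cxcr4 KO, against 116, 71.9 and 48.6 FPKM in Cxcr4 WT (log2 difference 1.60, SE 0.44, limma adjusted p = 0.986). S1pr1, the receptor for lymphocyte egress, was at 73.0, 213 and 98.4 FPKM in Cxcr4 KO, against 81.1, 32.5 and 25.0 FPKM in Cxcr4 WT, and overlapped as most Gimap genes did.

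Direct Notch targets were included because the leukaemias carry activated Notch1 and human GIMAP5 has been described as raised by Notch in T-ALL. With AMD3100, 0 of 11 kept targets were called without pairs, 0 had an unadjusted p under 0.05, and 5 rose with the pairs as a block (Cdk6, Notch3, Il2ra, Dtx1 and Hes1), with a list median of 0.31. Over all genes 21.5% had an unadjusted p under 0.05 without pairs and 9.96% rose with them. In the tumours 0 of 11 were called in limma and 3 had an unadjusted p under 0.05, all lower in Cxcr4 KO, with a list median of −0.61. Among all genes of the tumours 0.0372% were called and 4.28% had an unadjusted p under 0.05. Their median was −0.03, and 9.21% did not overlap in either direction. Notch3 was at 1.54, 6.98 and 3.95 FPKM in Cxcr4 KO, against 59.8, 13.6 and 23.1 FPKM in Cxcr4 WT, without overlap (log2 difference −2.58, SE 0.64, limma adjusted p = 0.986). Il2ra, the IL-2 receptor alpha chain, was at 6.16, 16.6 and 13.0 FPKM in Cxcr4 KO, against 138, 27.8 and 87.0 FPKM in Cxcr4 WT. Ptcra, the pre-T cell receptor alpha chain, was at 6.98, 7.55 and 25.6 FPKM in Cxcr4 KO, against 124, 23.6 and 57.8 FPKM in Cxcr4 WT, with Cxcr4 KO tumour 8 above Cxcr4 WT tumour 2. The 8 Gimap genes had the opposite sign to Notch3, Il2ra and Ptcra in the same tumours. Not all targets did, since 3 of the 11 were above 0 like the Gimap genes, against 47.7% of all genes. These were Hes5 (log2 difference 0.89), Dtx1 (0.35) and Myc (0.01). Dtx1 was at 226, 469 and 310 FPKM in Cxcr4 KO, against 488, 157 and 206 FPKM in Cxcr4 WT.

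Interferon-inducible GTPases, another family of GTP-binding proteins of immune cells, were taken for comparison. With AMD3100, 0 of 9 kept genes were called with or without pairs, 0 had an unadjusted p under 0.05 without pairs and 5 with them, and all 9 were above 0, with a median of 0.34. Over all genes the unadjusted p was under 0.05 for 21.5% without pairs and 39% with them, and 50.3% were above 0. In the tumours 0 of 10 were called in limma, against 0.0372% of all genes, and the median was 0.14, against −0.03 over all genes. An unadjusted p under 0.05 was reached by 1 of the 10, against 4.28% of all genes. That gene, Gbp3, was at 9.10, 8.92 and 11.6 FPKM in Cxcr4 KO, against 17.0, 17.1 and 15.9 FPKM in Cxcr4 WT.

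The genes most like the family were ranked among 7471 with a mean of at least 5 FPKM in both tables, by the smaller of 2 Pearson correlations with the mean log2 level of the 8 members, over 6 ex vivo and 6 tumour samples. The first 6 were Kctd2, Cytip, the joint entry of 6530402F18Rik and Ntng2, Tnip1, Desi2 and Cd5. Cytip, a cytohesin-binding protein of lymphocytes, had an r of 0.84 ex vivo and 0.97 in the tumours. It was at 55.4, 155 and 65.1 FPKM in Cxcr4 KO, against 87.5, 32.7 and 26.4 FPKM in Cxcr4 WT, so that Cxcr4 KO 7 and Cxcr4 WT 1 were the highest, as for most Gimap genes. Tnip1, which limits NF-kB signalling, had an r of 0.83 ex vivo and 0.96 in the tumours. Cd5, a T cell surface receptor that is also among the 11 T cell markers, had an r of 0.81 ex vivo and 0.89 in the tumours. The ranking is over few samples that share library and cell make-up, and names a likeness only.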

How the data were processed

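Polyadenylated RNA of 12 mouse T-ALL samples was made into strand-specific libraries and read as single 50-base reads, per the labels' protocols. The authors deposited FPKM values in 2 tables of 6 samples and 23174 lines, of which 447 lines held a symbol that stood more than once. Tools named are CASAVA and TopHat and the build is mm9, per the submitters' processing notes. No source used here gives the program that made the FPKM, its annotation or any version. The tables hold no counts, so read depth and counting error are unknown.

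Columns were tied to samples through their names. The 2 tables were fitted separately on log2(FPKM + 1), with limma 3.58.1 (R 4.3.3), with a mean trend and two-sided tests. Genes whose mean over 6 samples was 1 FPKM or more were kept, p-values were adjusted by Benjamini-Hochberg over all kept genes, and a call is an adjusted p under 0.05. Fold changes on this scale understate the change of low genes. The script was tested on simulated data with independent noise for each gene and no pairs. That test covers neither the paired fit nor libraries that differ in cell make-up. An exact permutation test of 3 against 3 samples cannot give a p under 0.1 and was not used.

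Same-numbered AMD3100 and vehicle samples deviated together from their group means (correlations 0.467, 0.579 and 0.619 over 10245 genes, all above the limit of 0.1), and those with different numbers had −0.473 to 0.0455. The numbers were taken as pairs and entered as a block beside the fit without one. The labels do not say what a number marks. No number is shared between the tumour genotypes.

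The 8 members and the gene lists were chosen with earlier results of these data known. Genes named are all members, up to 3 with the smallest p in a list (plus any that a count of 5 or fewer holds), 3 neighbours on each side of the cluster, the 6 genes most like the family and Cxcr4. The 6 genes that passed in the quiescence list were all named after their values were seen, as were Bcl2 and Bad ex vivo, Col1a1 and Col3a1. Lists were markers of T cells, B cells, NK and cytotoxic cells, macrophages, neutrophils, erythroid cells, endothelium and stroma. The others were Bcl2 family, ATG8, Gsk3b and FoxO genes, lymphocyte quiescence, interferon-inducible GTPases and Notch targets. Alternatives were other pseudocounts, filters and scalings, no mean trend, leaving out samples, and the block. Promoter sequences are from RefSeq (GRCm38.p6) and matched all 8 symbols, and transcripts are from GENCODE vM21.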

Additional observations from a re-analysis of the deposited data

How the results depend on the processing

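No Gimap gene was called in either comparison under any setting tried with 1 exception. That was Gimap1, higher with AMD3100, in the paired fit without the samples numbered 3, an alternative added after seeing the data, where 1 member was called and 0 in the paired fits without number 1 or 2. The 13 genes called ex vivo became 8 with no filter, 188 at a mean of at least 5 FPKM, 89 with median-of-ratios scaling (24 higher and 65 lower, against 5 and 8), 3 with quantile normalisation and 1 without a mean trend, and leaving out 1 library gave 3 to 5. The replicate block gave 2036 and changed no call of a Gimap gene, and with 1 number left out of both groups 7 to 1207. The ex vivo median of the members (−0.07) ran from −0.18 to 0.29 with 1 library left out, and from −0.32 to 0.27 in the paired fits with 1 number left out. The 4 genes called in the tumours became 0 with no filter, 0 with scaling to T cell markers and 0 to 4 with 1 library left out. The tumour median of the members (0.78) ran from 0.38 to 1.36 with 1 library left out, and was 0.65 with haemoglobin genes taken out, where the median of all genes was −0.15. Where a left-out library leaves 3 against 2 samples, fewer samples are tested, and the cause of the other shifts was not tested. Over 245 recomputed differences of single members, 10 turned sign: 4 of Gimap7, 3 of Gimap4 and 1 of Gimap5 ex vivo, and 2 of Gimap9 in the tumours. No paired analysis was possible for the tumours because the genotypes share no numbers. Depth is unknown, and low levels limit Gimap3, Gimap7 and Gimap8 ex vivo most, at 0 to 2.83 FPKM, where a 0 can stand for an estimate that failed.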

Other observations

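In the cultured cells, 4 of the 28 kept genes of the cell type marker lists (14.3%) were called between AMD3100 and vehicle, all in the paired limma fit alone, where 19.9% of all genes were called, so the share is below that of all genes. Of 4 kept NK and cytotoxic markers, 0 were called without pairs, 1 had an unadjusted p under 0.05, and 2 rose with the pairs as a block. Nkg7, a protein of cytotoxic granules, was at 71.0, 98.4 and 264 FPKM with AMD3100, against 28.3, 41.1 and 42.3 FPKM with vehicle (log2 difference 1.72, paired limma adjusted p = 0.0247). Gzmb, the protease granzyme B, was at 1.84, 20.5 and 43.4 FPKM with AMD3100, against 0.574, 6.96 and 6.22 FPKM with vehicle (log2 difference 1.63, paired limma adjusted p = 0.0345). Ncr1 and Klrk1 were listed at 0 in the same samples, and Gzma was at 1240 to 3381 FPKM over both groups. Of 11 T cell markers 1 fell with the pairs as a block, namely Cd3g, a chain of the T cell receptor complex, at 834, 828 and 496 FPKM with AMD3100, against 1160, 1105 and 694 FPKM with vehicle (log2 difference −0.46, paired limma adjusted p = 0.0251). Of 2 kept endothelial markers 1 fell in the same fit, namely Egfl7, a secreted protein of blood vessels, at 12.4, 8.58 and 4.32 FPKM with AMD3100, against 16.1, 16.6 and 12.3 FPKM with vehicle (log2 difference −0.85, paired limma adjusted p = 0.0418).

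In the tumours, 0 marker genes of any list were called by limma, where 0.0372% of all genes were. An unadjusted p under 0.05 was reached by 1 of 7 kept NK and cytotoxic, 1 of 3 B cell and 1 of 7 macrophage markers. Of all genes 4.28% had an unadjusted p under 0.05, and 9.21% did not overlap in either direction. Klrk1, an activating receptor of NK and cytotoxic T cells, was at 11.99, 20.6 and 36.6 FPKM in Cxcr4 KO, against 15.3, 5.00 and 5.03 FPKM in Cxcr4 WT. Cd22, a B cell surface receptor, was at 32.2, 33.3 and 38.7 FPKM in Cxcr4 KO, against 27.8, 17.4 and 11.0 FPKM in Cxcr4 WT, without overlap. C1qa, a complement gene of macrophages, was at 4.36, 6.55 and 7.37 FPKM in Cxcr4 KO, against 0.220, 5.09 and 0.307 FPKM in Cxcr4 WT.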
